A study of Homo sapiens with 12 samples.

Results

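The genes of eukaryotic translation initiation were followed through inhibition of PI3K, of EZH2 and of both in C4.2B cells, an established human cell line of castration-resistant prostate cancer. Members were all listed genes whose symbol begins with EIF followed by a digit from 1 to 6, with the Y-linked copy of EIF1A left out, which gave 59 of the 23228 genes in the count tables. They include the eIF2α kinases (EIF2AK), the eIF4E-binding proteins (EIF4EBP) and 4 Argonaute genes (EIF2C1 to EIF2C4, now AGO1 to AGO4), which carry older EIF symbols. PolyA RNA was sequenced from 12 libraries in 4 arms of 3 replicates, A, B and C. The DMSO arm received vehicle, the GDC arm 0.5 µM of GDC-0941, an inhibitor of all class I PI3K enzymes, the GSK arm the EZH2 inhibitor GSK126 at 5 µM, and the COMBO arm both agents at those doses. Treatment lasted 24 h in every arm, with 10% charcoal-stripped serum in the medium, and cells of the GSK and COMBO arms had been kept in GSK126 for the preceding 6 days. All libraries came from this cell line, so p-values measure the spread between these samples, which may be technical.

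Translation of most mRNAs starts when the cap-binding protein eIF4E, the scaffold eIF4G and the helicase eIF4A join as eIF4F and recruit a small ribosomal subunit that carries eIF1, eIF1A, eIF3, eIF5 and the ternary complex of eIF2, GTP and initiator tRNA. mTORC1, which lies downstream of PI3K and AKT, releases eIF4E by phosphorylating the 4E-binding proteins. Kinases that sense stress phosphorylate eIF2α, which blocks the exchange factor eIF2B and lowers the supply of ternary complex. EZH2 is the enzyme that methylates histone H3 at lysine 27. The data here are mRNA levels, so phosphorylation, protein and the rate of translation were not measured.

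Gene counts per library ranged from 8785218 to 44437751, and a gene at 0 could still hold 3 counts, or 0.0675 to 0.341 CPM. CPM are counts scaled to a common library size, by TMM in all other values. Reads outside annotated features made up 14.2% ± 0.480 of reads (DMSO), 15.6% ± 0.269 (GDC), 18.8% ± 0.266 (GSK) and 21.8% ± 1.07 (COMBO), with SD of 3 libraries, and the part of this shift in the results was not tested. All 9 luminal prostate markers were detected, with a summed level of 3328 to 3549 CPM in DMSO and 5595 to 6033 CPM in COMBO. The 9 fibroblast, immune and endothelial markers summed to 12.8 to 14.7 CPM (DMSO), 15.6 to 20.7 (GDC), 31.2 to 43.5 (GSK) and 34.4 to 52.0 (COMBO), and their part in the results was not tested. Nearly all of that sum was COL1A1 and VWF, while CD3E had 0 counts.

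Of the 59 members, 5 had too few assigned reads to be tested. EIF4A1, the main eIF4A helicase gene, was listed at 0 counts in all 12 libraries, and so was EIF3CL. EIF3C, which is nearly identical in sequence to EIF3CL, had at most 5 counts in a library, EIF4E1B at most 2, and the pseudogene EIF3IP1 at most 13. In the GENCODE annotation EIF4A1 overlaps the counted readthrough gene SENP3-EIF4A1 on the same strand, and reads shared by both may be lost. The annotation used for counting is not given, and the reason for the 0 counts was not tested. The expression of EIF4A1 was thus not measured here. The remaining 54 members were tested together with all 14189 genes that passed the filter. Of the 59 members, 24 have named pseudogenes in GENCODE and 18 overlap another counted gene, and such values are less certain because reads can be lost or shared.

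In the COMBO arm, mRNAs of initiation factors were mostly lower than in DMSO, and a smaller group that included EIF4A2, EIF4B, EIF4E3 and the kinase gene EIF2AK3 was higher. Of the 54 tested members 37 were lower and 11 higher in COMBO than in DMSO (adjusted p under 0.05, by Benjamini-Hochberg over all genes, in the quasi-likelihood test of edgeR), while 39.2% of all genes tested were lower and 43.3% higher. In GSK, 37 members were lower and 10 higher, against 35.7% and 40.0% of all genes. In GDC, 25 were lower and 10 higher, where 20.0% of all genes were called in each direction (20.0% lower and 20.0% higher). CPM are shares of each library, and in such bulk samples fewer cells with a transcript and less of it per cell cannot be told apart. The share of gene counts that fell on the 59 members was 1.63% ± 0.0111 (DMSO), 1.55% ± 0.00557 (GDC), 1.38% ± 0.00721 (GSK) and 1.37% ± 0.0232 (COMBO), with SD of 3 libraries. Abundant members weigh most in this share. EIF4G1 and EIF4G2 went from means of 2645 and 2681 CPM in DMSO to 1294 and 1477 CPM in COMBO, and EIF4B from 895 to 1332 CPM.

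The median log2 fold change over tested members was -0.10 in GDC, -0.36 in GSK and -0.48 in COMBO against DMSO, beside 0.016, 0.058 and 0.054 over all genes. These medians depend on the scaling of the libraries. Scaling by library totals in place of TMM moved the log2 fold change of all genes up by a median of 0.034 in GDC, 0.15 in GSK and 0.21 in COMBO. With library totals the members' medians remained negative, at -0.070, -0.21 and -0.28, and 29 members were lower and 17 higher in COMBO. The split of calls over all genes in COMBO then changed from 52.5% to 63.3% higher, in GSK from 52.8% to 64.0%, and between COMBO and GDC from 49.9% to 62.8%. In GDC the higher share of all calls was 50% with TMM, 58.5% with library totals, 40.2% with DESeq2 size factors and 39.3% in DESeq2.

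For 27 of the 54 members the arm means went down from DMSO to GDC to GSK to COMBO, and for 5 they went up in that order, against 23.2% and 23.0% of all genes tested. Compared with GDC alone, COMBO had 36 members lower and 8 higher, against 38.0% and 37.9% of all genes. Compared with GSK alone, COMBO had 20 lower and 12 higher, against 26.9% and 19.0% of all genes. All comparisons against DMSO use the same 3 vehicle libraries.

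**Figure D1:**
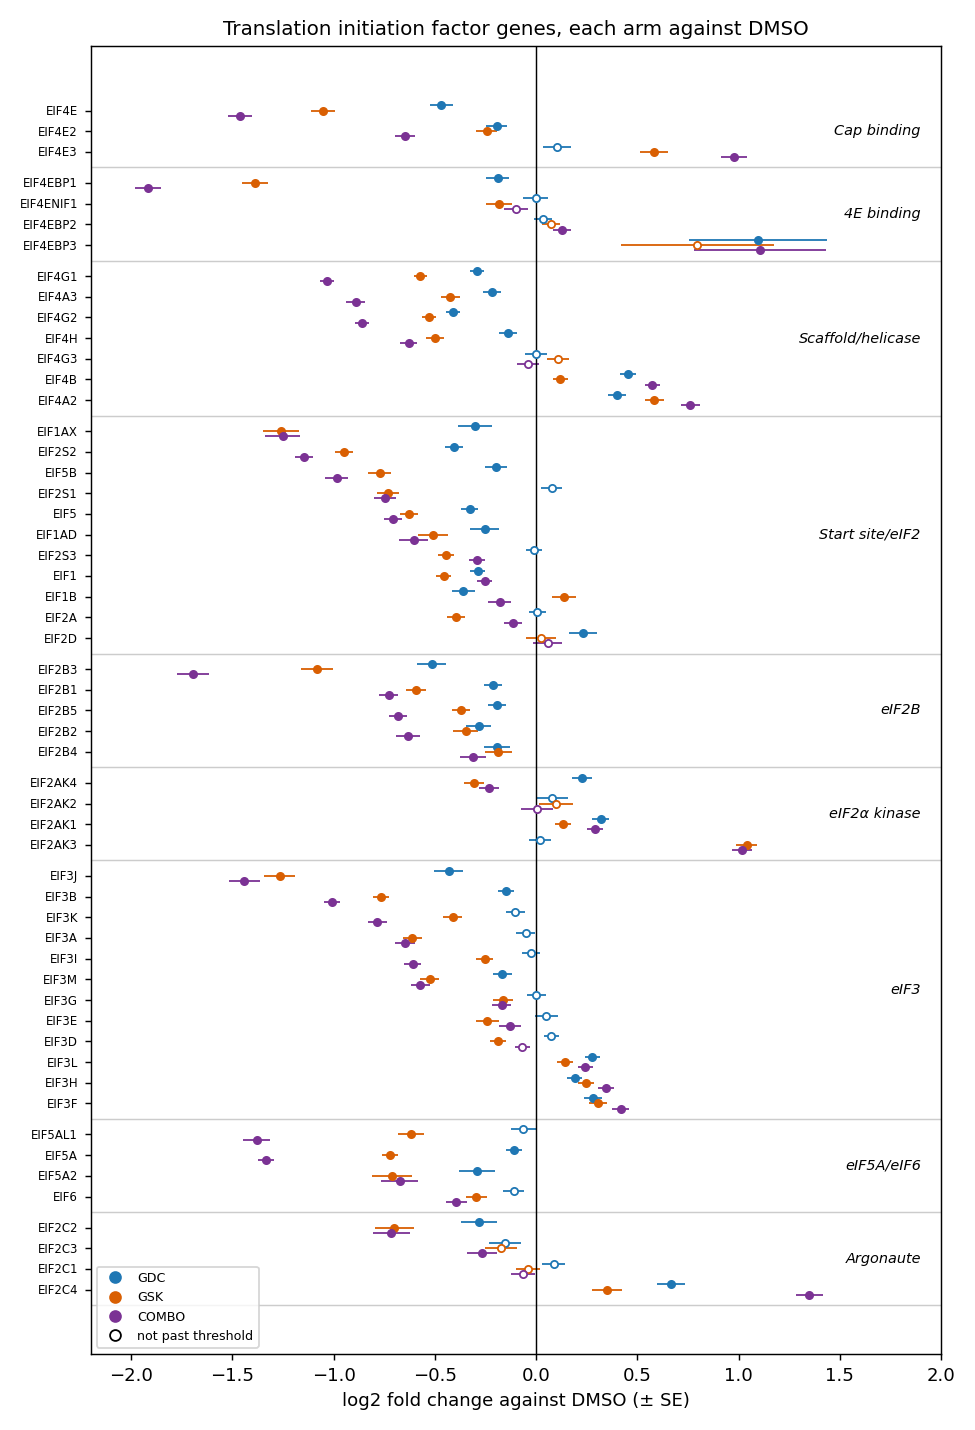
Log2 fold change against DMSO (points, with bars of ± SE from the edgeR fit, 3 libraries per arm) for the 54 tested members in GDC, GSK and COMBO, grouped by role, with open points for adjusted p of 0.05 or more. EIF4EBP1 at -1.92 and EIF2B3 at -1.69 lie farthest to the left in COMBO, and EIF2C4 at 1.35 farthest to the right.

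The cap-binding genes moved apart. EIF4E (chromosome 4, 98879276 to 98929133, minus strand, GRCh38), which encodes the protein that holds the mRNA cap, fell in every treated arm. EIF4E3 (chromosome 3, 71675414 to 71754773, minus strand), a cap-binding relative, was higher in GSK and COMBO. EIF4E levels in replicates A, B and C were 97.9, 93.5 and 94.0 CPM (DMSO), 63.0, 72.1 and 70.1 CPM (GDC), 46.4, 44.98 and 46.1 CPM (GSK), and 33.4, 36.9 and 32.5 CPM (COMBO). Each arm lay below the one before it without overlap. The log2 fold change of EIF4E was -0.47 ± 0.056 in GDC, -1.05 ± 0.060 in GSK and -1.46 ± 0.059 in COMBO (SE, edgeR adjusted p = 2.52e-06, 3.99e-12 and 6.39e-15), so that COMBO held 0.363 of the DMSO level. COMBO was also below GSK alone, with a difference of -0.41 on the log2 scale (adjusted p = 3.33e-05).

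The E-box CACGTG, a motif bound by MYC and related factors, lies at 2 places in the RefSeq promoter window of EIF4E (RefSeq, GRCh38.p14, from 250 bases before to 50 bases after the gene start). They are shown because EIF4E is a textbook MYC target, together with examples from EIF2B3, EIF4G1, EIF4A3 and EIF4H, which were also lower in COMBO. EIF4G1 has a further E-box downstream of its GENCODE start, which is not shown. EIF1B, EIF5A2 and EIF3K also hold the motif and were lower, EIF4B, EIF3F and EIF4EBP3 hold it and were higher, and EIF2AK2 holds it and was not called. Capitals mark the E-box, and each run is written 5′ to 3′ on the strand of the gene.
EIF4E, chr4:98929328-98929383, minus strand: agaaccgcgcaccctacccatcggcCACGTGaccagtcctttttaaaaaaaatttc
EIF4E, chr4:98929175-98929230, minus strand: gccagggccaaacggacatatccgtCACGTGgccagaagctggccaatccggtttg
EIF2B3, chr1:44986744-44986799, minus strand: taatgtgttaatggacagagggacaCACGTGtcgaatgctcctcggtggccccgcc
EIF4G1, chr3:184314437-184314492, plus strand: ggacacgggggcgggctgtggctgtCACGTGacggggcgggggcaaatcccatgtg
EIF4A3, chr17:80147219-80147274, minus strand: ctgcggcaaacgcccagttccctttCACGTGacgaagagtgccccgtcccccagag
EIF4H, chr7:74174132-74174187, plus strand: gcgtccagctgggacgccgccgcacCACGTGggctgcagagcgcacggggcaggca

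The E-box was found in 12 of the 48 member promoters in the RefSeq table (25%), in 8.77% of all 27305 promoters and in 11.6% of the 12491 promoters of listed genes with a count. It reads the same on both strands. Of the 12 with an E-box 8 were lower (66.7%), 3 higher and 1 not called in COMBO, and of the 33 tested without it 23 were lower (69.7%), 5 higher and 5 not called. The difference between these shares was not tested. Another motif, the C/EBP-ATF composite element TGATGCAA searched on both strands, was in 0 of the 48 member windows and in 1.08% of all windows. A match describes letters in this window and not binding of a factor, and binding was not measured.

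EIF4E3 held 30.6, 31.5 and 30.6 CPM (DMSO), 32.7, 34.6 and 32.0 CPM (GDC), 44.6, 44.8 and 49.1 CPM (GSK), and 59.3, 66.5 and 55.9 CPM (COMBO). It was higher by 0.58 ± 0.070 in GSK and 0.98 ± 0.065 in COMBO (log2, adjusted p = 2.60e-07 and 2.07e-11), and its GDC value of 0.10 did not pass the test (adjusted p = 0.261). All COMBO libraries lay above all GSK libraries, which lay above all GDC and DMSO libraries. Per kilobase of transcript, EIF4E3 mRNA was 0.0790 ± 0.00287 of EIF4E mRNA (DMSO), 0.118 ± 0.00756 (GDC), 0.245 ± 0.0127 (GSK) and 0.430 ± 0.0101 (COMBO), with SD of 3 libraries. EIF4E2, whose product (4EHP) binds the cap and represses translation, held 83.2, 86.4 and 85.7 CPM (DMSO), 76.4, 76.5 and 70.5 CPM (GDC), 69.3, 71.0 and 75.4 CPM (GSK), and 54.5, 53.7 and 55.0 CPM (COMBO). It was lower, at -0.65 ± 0.050 in COMBO (adjusted p = 2.48e-10) and its libraries in each treated arm lay below all DMSO libraries.

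Among the 4E-binding regulators EIF4EBP1 was lower in COMBO, and EIF4EBP2 and EIF4EBP3 were higher. EIF4EBP1 (chromosome 8, 38030534 to 38060365, plus strand) encodes 4E-BP1, which represses eIF4E until mTORC1 phosphorylates it, and it showed the largest decrease of all tested members in COMBO. Its levels were 92.4, 104 and 104 CPM (DMSO), 90.4, 86.2 and 87.8 CPM (GDC), 41.3, 36.8 and 37.5 CPM (GSK), and 25.9, 25.4 and 28.8 CPM (COMBO). Every GSK and COMBO library lay far below every DMSO library, and the GDC libraries lay just below them. The log2 fold change was -1.39 ± 0.063 in GSK and -1.92 ± 0.063 in COMBO (adjusted p = 1.42e-13 and 2.48e-16), which left 0.265 of the DMSO level. In GDC it was -0.19 (adjusted p = 0.0116), a call that was lost without DMSO replicate C (adjusted p = 0.0767, range over 19 alternatives 0.000293 to 0.0767).

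EIF4EBP2 (chromosome 10, 70404145 to 70428618, plus strand), the other widely expressed 4E-BP gene, had 329.9, 314 and 315 CPM (DMSO), 329, 319 and 332 CPM (GDC), 322, 331 and 356 CPM (GSK), and 337, 359 and 352 CPM (COMBO). COMBO lay just above DMSO and GDC without overlap, and all other arms overlapped. Against DMSO the difference was 0.13 ± 0.044 (log2, adjusted p = 0.012), and this call was lost in 4 of 19 alternatives, 1 of which left out COMBO replicate B (adjusted p from 3.83e-07 to 0.188 over the alternatives). Per kilobase, EIF4EBP1 mRNA was 2.83 ± 0.257 times EIF4EBP2 mRNA (DMSO), 2.44 ± 0.0493 (GDC), 1.04 ± 0.109 (GSK) and 0.694 ± 0.0499 (COMBO). The order of these genes by level per kilobase was thus turned around in COMBO, where all 3 ratios lay between 0.642 and 0.741. This rests on canonical transcripts of 0.827 kb for EIF4EBP1 and 7.491 kb for EIF4EBP2, and the transcripts in use were not measured. In CPM, EIF4EBP2 lay above EIF4EBP1 in every arm, with means of 319.8 and 99.9 in DMSO and 349.1 and 26.7 in COMBO. EIF4E mRNA relative to the sum of EIF4EBP1 and EIF4EBP2, also per kilobase, was 0.2402 ± 0.0162 (DMSO), 0.188 ± 0.0168 (GDC), 0.207 ± 0.00231 (GSK) and 0.179 ± 0.0147 (COMBO). The size and the order of these values depend on the same lengths, which give EIF4EBP2 less weight than CPM do. In CPM, the means of EIF4E, EIF4EBP1 and EIF4EBP2 were 68.4, 88.1 and 326.7 in GDC and 45.8, 38.5 and 336 in GSK.

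EIF4EBP3, the remaining 4E-BP gene, was scarce, with 4 to 37 counts per library and a transcript that overlaps the readthrough gene ANKHD1-EIF4EBP3. Its levels were 0.421, 0.719 and 0.674 CPM (DMSO), 1.503, 1.35 and 1.34 CPM (GDC), 0.989, 1.74 and 0.593 CPM (GSK), and 0.871, 1.64 and 1.68 CPM (COMBO). It was higher in GDC by 1.10 ± 0.34 and in COMBO by 1.10 ± 0.33 (log2, adjusted p = 0.0152 and 0.00421), and the GDC call was lost without DMSO replicate C (adjusted p = 0.0552, range 0.00416 to 0.0552). EIF4ENIF1 encodes 4E-T, which carries eIF4E into the nucleus and into P-bodies. EIF4ENIF1 levels were 43.6, 38.9 and 42.5 CPM (DMSO), 40.0, 43.1 and 41.1 CPM (GDC), 35.0, 36.6 and 37.9 CPM (GSK), and 37.7, 37.9 and 41.1 CPM (COMBO), and in COMBO it differed from DMSO by -0.099 with overlapping libraries (adjusted p = 0.131). In GSK it was lower than in DMSO, at -0.18 without overlap (adjusted p = 0.0132). This GSK call was lost with library totals and without DMSO replicate C (adjusted p from 0.000799 to 0.667 over the alternatives).

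**Figure D2:**
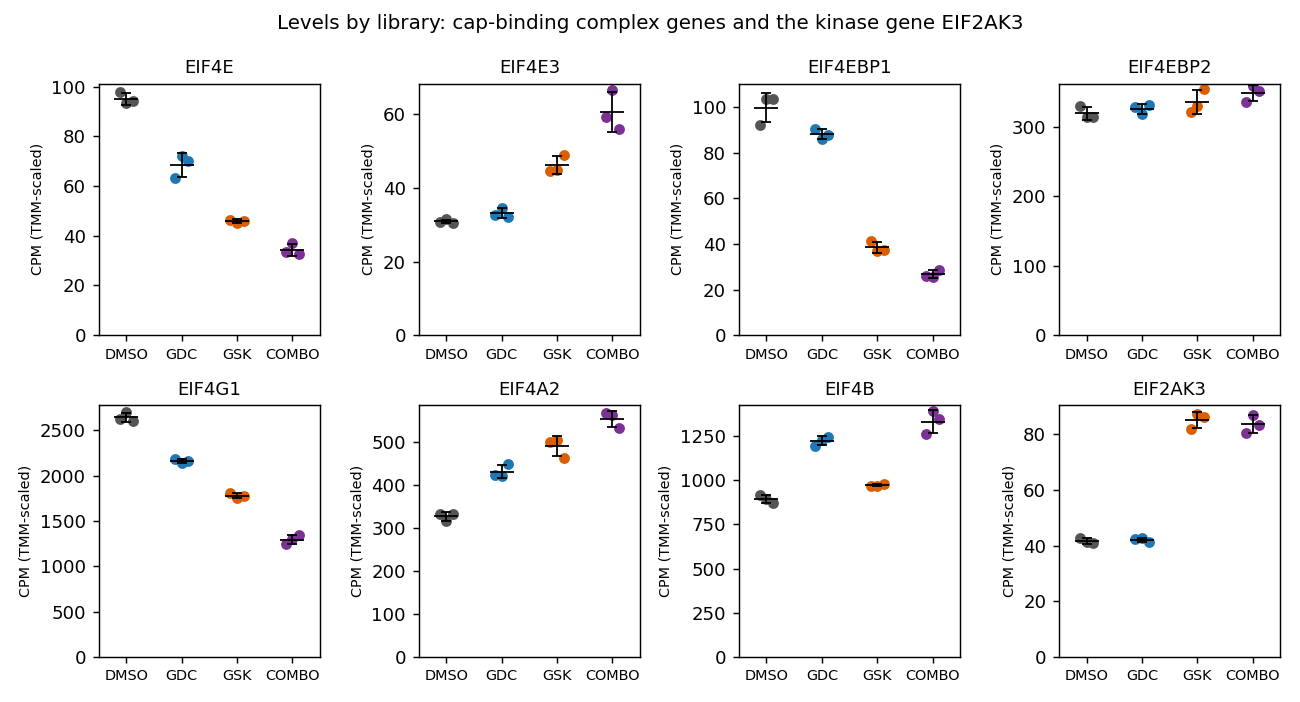
CPM with TMM scaling in each library (points) with the mean and SD of 3 libraries per arm (lines) for 8 genes of cap-dependent initiation and its control, each axis starting at 0. EIF4E, EIF4EBP1 and EIF4G1 step down from DMSO to COMBO, EIF4E3, EIF4A2 and EIF4B are higher in COMBO than in DMSO, EIF4EBP2 stays between 314 and 359 CPM in all 12 libraries, and EIF2AK3 is high in both arms that received GSK126.

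The scaffold and the helicase genes also split. EIF4G1 (chromosome 3, 184314495 to 184335358, plus strand), the main eIF4G scaffold, was among the most abundant members, with 2626, 2702 and 2606 CPM (DMSO), 2181, 2135 and 2159 CPM (GDC), 1812, 1755 and 1773 CPM (GSK), and 1242, 1297 and 1344 CPM (COMBO). No library of an arm reached the level of the next arm. Against DMSO the fitted log2 change was -0.29 ± 0.034 in GDC, -0.57 ± 0.034 in GSK and -1.03 ± 0.034 in COMBO (adjusted p = 1.48e-06, 6.68e-12 and 2.92e-16). EIF4G3, its paralog, held 145, 129 and 138 CPM (DMSO), 142, 132 and 138 CPM (GDC), 141, 147 and 156 CPM (GSK), and 138, 129.7 and 132 CPM (COMBO). Its arms overlapped except that GSK lay above COMBO, and its COMBO difference from DMSO was -0.040 ± 0.053 (adjusted p = 0.484). Library totals turned this to 0.17, past the threshold. Per kilobase, EIF4G1 mRNA exceeded EIF4G3 mRNA by 22.9 ± 1.73 times (DMSO), 18.7 ± 0.515 (GDC), 14.3 ± 0.892 (GSK) and 11.5 ± 0.780 (COMBO).

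EIF4G2 encodes DAP5, an eIF4G relative that does not bind eIF4E, and was lower in all 3 treated arms, with a log2 fold change of -0.41, -0.53 and -0.86 in GDC, GSK and COMBO (adjusted p = 1.91e-08, 1.53e-11 and 3.30e-15). Of the 7 scaffold and helicase genes tested, 4 were lower and 2 higher in COMBO (57.1% and 28.6%), against 39.2% and 43.3% of all genes tested.

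The genes of this role that rose were a helicase and a cofactor of it. EIF4A2 (chromosome 3, 186783205 to 186789897, plus strand), the paralog of the main eIF4A helicase, held 334, 316 and 332 CPM (DMSO), 425, 421 and 451 CPM (GDC), 502, 507 and 464 CPM (GSK), and 568, 564 and 534 CPM (COMBO). All treated libraries lay above all DMSO libraries, with GSK above GDC and COMBO above GSK. On the log2 scale it changed by 0.40 ± 0.045 in GDC, 0.58 ± 0.045 in GSK and 0.76 ± 0.045 in COMBO (adjusted p = 1.07e-06, 3.81e-10 and 2.81e-12). GENCODE names 5 pseudogenes of EIF4A2, and 5 counted small RNA genes lie within it on the same strand. With EIF4A1 listed at 0, the sum of both helicase genes could not be given.

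EIF4B (chromosome 12, 53006282 to 53042215, plus strand) encodes an RNA-binding cofactor that stimulates eIF4A and is itself a target of S6 kinase. Its levels were 917, 895 and 874 CPM (DMSO), 1196, 1230 and 1247 CPM (GDC), 968, 968 and 981 CPM (GSK), and 1260, 1390 and 1346 CPM (COMBO). The libraries fell into a lower pair of arms, DMSO and GSK, and a higher pair, GDC and COMBO, which are the arms that received GDC-0941. The log2 fold change was 0.45 ± 0.038 in GDC and 0.57 ± 0.038 in COMBO (adjusted p = 3.52e-08 and 2.16e-11). In GSK it was 0.12 (adjusted p = 0.00804), a call lost in 6 of 19 alternatives, some of which left out GDC replicate B, GSK replicate A or COMBO replicate C (adjusted p from 7.20e-07 to 0.496). EIF4H, the other cofactor of the helicase, was lower in COMBO, at -0.63 ± 0.044 (adjusted p = 4.14e-11), and EIF4A3, the helicase of the exon junction complex, at -0.89 ± 0.047 (adjusted p = 4.30e-13).

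Genes for start-site selection and for delivery of the initiator tRNA were lower in COMBO in 10 of 11 cases, and 0 were higher. Over all genes tested 39.2% were lower and 43.3% higher. With library totals 7 of the 11 were lower and 2 higher (EIF2A at 0.095 and EIF2D at 0.26, adjusted p = 0.0466 and 0.00236). Of the COMBO calls over all genes, 63.3% were higher under that scaling and 52.5% with TMM. EIF1AX (chromosome X, 20124525 to 20141838, minus strand) encodes eIF1A, which helps the small subunit scan and recognise the start codon. It held 203, 178 and 197 CPM (DMSO), 144, 169.8 and 153 CPM (GDC), 80.2, 79.4 and 81.6 CPM (GSK), and 76.7, 96.0 and 68.1 CPM (COMBO), so the GSK and COMBO libraries overlapped and both lay below DMSO and GDC. EIF1AX was lower, at -1.26 ± 0.090 in GSK and -1.25 ± 0.087 in COMBO (adjusted p = 1.25e-10 and 4.61e-11), and COMBO differed from GSK by 0.0075 (adjusted p = 0.958). EIF1, whose product guards against wrong start codons, held 582, 600.1 and 570.5 CPM (DMSO), 482, 482 and 471 CPM (GDC), 419.5, 421 and 436 CPM (GSK), and 486, 491 and 493 CPM (COMBO). GSK was the lowest arm and DMSO the highest, and COMBO lay just above GDC. COMBO was above GSK by 0.20 ± 0.037 (adjusted p = 0.000151). Its difference from GDC, 0.035, did not pass the test (adjusted p = 0.398) and was called in 2 of 19 alternatives. Against DMSO, EIF1 was -0.25 in COMBO (log2, adjusted p = 2.47e-06), a call lost with library totals (-0.045).

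The 3 subunits of eIF2 did not fall alike. EIF2S1 (chromosome 14, 67360328 to 67386516, plus strand) encodes eIF2α, the subunit that the stress kinases phosphorylate, and held 383, 362 and 372 CPM (DMSO), 376, 404 and 397 CPM (GDC), 236, 214 and 222 CPM (GSK), and 215, 241 and 208 CPM (COMBO). DMSO and GDC overlapped, as did GSK and COMBO, and the arms with GSK126 lay below the arms without it. On the log2 scale it changed by -0.73 ± 0.054 in GSK and -0.75 ± 0.053 in COMBO (adjusted p = 1.80e-10 and 6.16e-11), and 0.077 in GDC (adjusted p = 0.262). EIF2S2 (eIF2β) was lower in COMBO, at -1.15 ± 0.045, and EIF2S3 (eIF2γ) at -0.29 ± 0.040 (adjusted p = 3.74e-15 and 1.03e-06). EIF5, which stimulates GTP hydrolysis by eIF2, was lower, at -0.71, and EIF5B, which joins the ribosomal subunits, at -0.99 (adjusted p = 4.69e-12 and 1.25e-12).

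The smallest COMBO values in this role belonged to EIF2D, EIF2A and EIF1B. EIF2D, which can deliver tRNA to the ribosome without eIF2, held 37.6, 41.5 and 38.8 CPM (DMSO), 49.1, 42.5 and 47.7 CPM (GDC), 41.8, 41.0 and 37.6 CPM (GSK), and 41.4, 37.6 and 44.6 CPM (COMBO), and COMBO overlapped with DMSO (0.056, adjusted p = 0.462). It was higher in GDC by 0.23 (adjusted p = 0.0133), a call lost in 5 of 19 alternatives, some of which left out DMSO replicate C, GDC replicate A or GDC replicate C (adjusted p from 0.00679 to 0.0656). EIF2A, another factor that can bring initiator tRNA, was lower in COMBO, at -0.11 (adjusted p = 0.0226), which library totals turned to 0.095 and which was lost without DMSO replicate B or C and without COMBO replicate A or C (adjusted p from 0.00266 to 0.108). EIF1B, a paralog of EIF1, was lower, at -0.18 in COMBO (adjusted p = 0.00621) and at 0.027 with library totals.

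All 5 subunits of eIF2B, the exchange factor that recharges eIF2 with GTP, were below DMSO in all 3 treated arms. Over all genes tested 20.0% (GDC), 35.7% (GSK) and 39.2% (COMBO) were lower. With library totals 4 of 5 subunits were lower in each of these comparisons. Of the calls over all genes, 58.5% (GDC), 64% (GSK) and 63.3% (COMBO) were higher under that scaling. EIF2B3 (chromosome 1, 44850522 to 44986722, minus strand), the γ subunit, held 44.3, 42.2 and 43.3 CPM (DMSO), 30.8, 32.7 and 27.1 CPM (GDC), 22.8, 19.6 and 19.2 CPM (GSK), and 13.99, 13.5 and 12.4 CPM (COMBO). The arms did not overlap. It was lower, at -0.52 ± 0.073 in GDC, -1.08 ± 0.080 in GSK and -1.69 ± 0.079 in COMBO (adjusted p = 1.55e-05, 1.94e-10 and 6.38e-14), which left 0.309 of the DMSO level. EIF2B4, the δ subunit, held 47.0, 51.8 and 50.7 CPM (DMSO), 46.7, 44.7 and 40.4 CPM (GDC), 42.3, 44.98 and 44.6 CPM (GSK), and 41.3, 37.7 and 42.6 CPM (COMBO), with COMBO below DMSO in all libraries but overlapping with GDC and GSK. Its change of -0.31 ± 0.063 in COMBO (adjusted p = 0.000138) was the smallest of the subunits and was not called with library totals. Its GDC and GSK calls were lost with library totals and without DMSO replicate B and without DMSO replicate C (adjusted p over the alternatives from 0.00127 to 0.141 in GDC and 0.000376 to 0.667 in GSK), and in GDC also without GDC replicate C. EIF2B1, EIF2B2 and EIF2B5 were lower in COMBO, at -0.73, -0.63 and -0.68 (adjusted p = 1.27e-11, 6.73e-09 and 1.40e-11).

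The 4 eIF2α kinase genes each behaved differently. EIF2AK3 (chromosome 2, 88556741 to 88691518, minus strand) encodes PERK, the kinase that senses unfolded protein in the endoplasmic reticulum. Its levels were 42.8, 41.2 and 40.8 CPM (DMSO), 42.3, 42.6 and 41.2 CPM (GDC), 81.9, 87.3 and 86.2 CPM (GSK), and 80.6, 87.1 and 83.5 CPM (COMBO). The arms that received GSK126 lay at about the same level, far above DMSO and GDC, which overlapped. Against DMSO the fitted log2 change was 1.04 ± 0.052 in GSK and 1.02 ± 0.051 in COMBO (adjusted p = 5.55e-13 and 1.89e-13), 0.020 in GDC (adjusted p = 0.798) and -0.025 between COMBO and GSK (adjusted p = 0.712).

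EIF2AK4 (GCN2, which senses uncharged tRNA) went up with the PI3K inhibitor and down with the EZH2 inhibitor. It held 156, 162 and 165 CPM (DMSO), 188, 193 and 187 CPM (GDC), 127, 126 and 139 CPM (GSK), and 132, 145 and 135 CPM (COMBO). GDC lay above DMSO by 0.23 ± 0.050, GSK was at -0.31 ± 0.051, and COMBO was at -0.23 ± 0.050 (log2, adjusted p = 0.00111, 1.95e-05 and 0.000239), a call lost with library totals (-0.027). EIF2AK1 (HRI, the kinase that senses haem and mitochondrial stress) was higher in all treated arms, at 0.32 in GDC, 0.13 in GSK and 0.29 in COMBO (adjusted p = 5.62e-06, 0.00708 and 1.76e-06). Its GSK call was lost without the filter on low counts and without GSK replicate A (adjusted p from 2.68e-06 to 0.444 over the alternatives). EIF2AK2 (PKR, which binds double-stranded RNA) held 36.8, 32.0 and 32.3 CPM (DMSO), 36.8, 34.0 and 34.9 CPM (GDC), 35.3, 32.9 and 38.8 CPM (GSK), and 29.6, 36.7 and 33.6 CPM (COMBO). All of its arms overlapped, and its COMBO value was 0.0047 ± 0.079 (adjusted p = 0.958). With library totals EIF2AK2 was called higher in COMBO (0.21, adjusted p = 0.0161) and in GSK (adjusted p = 0.00817).

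Of the 14 eIF3 genes, whose complex holds the mRNA and the small subunit together, 12 were tested, and in COMBO 8 were lower and 3 higher. These are 66.7% and 25%, against 39.2% and 43.3% of all genes tested. With library totals, where 63.3% of the COMBO calls over all genes were higher, 6 were lower and 4 higher. EIF3D, EIF3E and EIF3G then turned positive. EIF3J (chromosome 15, 44537125 to 44563029, plus strand), a loosely bound subunit, fell most and held 236, 234 and 225 CPM (DMSO), 162, 179.6 and 173 CPM (GDC), 95.9, 93.0 and 100 CPM (GSK), and 76.3, 101 and 77.7 CPM (COMBO). GSK and COMBO overlapped, and both lay below GDC, which lay below DMSO. The log2 fold change of EIF3J was -0.43 ± 0.073 in GDC, -1.27 ± 0.077 in GSK and -1.44 ± 0.076 in COMBO (adjusted p = 0.000109, 1.01e-11 and 4.58e-13). EIF3B, the RNA-binding core subunit, followed with -1.01, EIF3K with -0.78 and EIF3A, the largest core subunit, with -0.65 (adjusted p = 4.09e-15, 3.29e-12 and 1.13e-10).

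The 3 eIF3 genes that were higher in COMBO were also higher in both single-agent arms, although without the filter on low counts the GDC call of EIF3H and the GSK call of EIF3L were lost (adjusted p = 0.0604 and 0.330, the highest over 19 alternatives, with the lowest at 8.38e-05 and 5.10e-07). EIF3F and EIF3H encode the paired MPN-domain subunits, and EIF3L encodes a peripheral subunit that pairs with EIF3K. In COMBO they were at 0.42 ± 0.043, 0.35 ± 0.038 and 0.24 ± 0.038 (log2, adjusted p = 1.71e-08, 5.62e-08 and 6.37e-06). EIF3D (chromosome 22, 36510855 to 36529184, minus strand), a subunit that can itself bind the cap of some mRNAs, held 361, 354 and 360.0 CPM (DMSO), 384, 378 and 369.6 CPM (GDC), 312, 319.7 and 311 CPM (GSK), and 330.3, 349 and 346 CPM (COMBO). COMBO was just below DMSO in every library, without passing the test (-0.067 ± 0.038, adjusted p = 0.111). The value was called in 4 of 19 alternatives (adjusted p from 0.00188 to 0.414), lower with DESeq2 size factors, without the filter and in DESeq2, and higher with library totals (0.14). EIF3E was lower in COMBO, at -0.13 with overlapping libraries (adjusted p = 0.0386), and the call was lost without DMSO replicate A or C and without COMBO replicate A or C (adjusted p from 0.000735 to 0.241).

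The eIF3 subunit mRNAs were far from equal per kilobase of canonical transcript. Per kilobase, the highest tested subunit mRNA exceeded the lowest by 15.6 ± 0.237 times (DMSO), 12.6 ± 0.548 (GDC), 10.6 ± 0.466 (GSK) and 7.65 ± 0.208 (COMBO), with SD of 3 libraries. EIF3I was the highest in each arm and EIF3F the lowest, at 320.4 ± 13.1 and 20.5 ± 0.845 CPM per kilobase in DMSO and 210.0 ± 4.15 and 27.4 ± 0.271 in COMBO. This order rests on canonical transcripts of 1.421 kb for EIF3I and 6.92 kb for EIF3F, and the transcripts in use were not measured. In CPM, EIF3A was the highest in DMSO, at 750.5 ± 39.2, and EIF3G the lowest, at 111.3 ± 3.17, with EIF3F at 141.8 ± 5.84. The narrowing between EIF3I and EIF3F per kilobase did not hold for the other subunits. Without EIF3F the SD of the log2 levels over the other 11 subunits was 0.853 in DMSO and 0.926 in COMBO, and EIF3D exceeded EIF3J by 2.04 ± 0.060 times in DMSO and 5.39 ± 0.71 times in COMBO. Per kilobase, EIF3D and EIF3E in DMSO (190.5 ± 2.02 and 187 ± 7.17) did not differ beyond their spread.

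**Figure D3:**
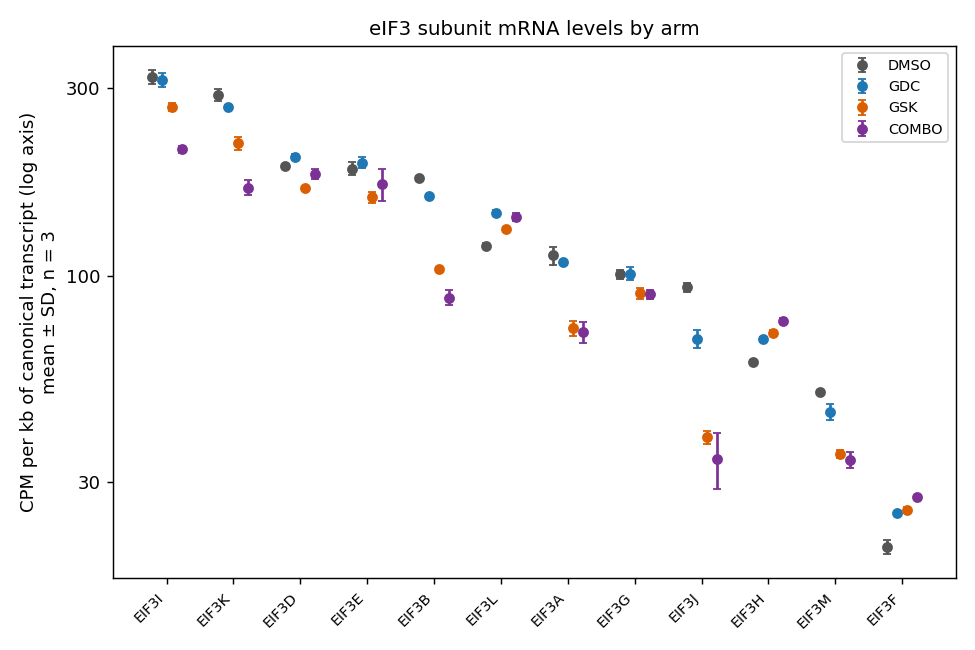
CPM per kilobase of the canonical transcript on a log axis (mean ± SD, 3 libraries per arm) for the 12 tested eIF3 subunit genes, ordered by their DMSO level. EIF3I, EIF3K, EIF3B, EIF3A, EIF3J and EIF3M step down in COMBO while EIF3L, EIF3H and EIF3F step up, so the distance from EIF3I to EIF3F narrows while that from EIF3D to EIF3J widens.

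EIF5A, EIF5AL1, EIF5A2 and EIF6 were all lower in COMBO and in GSK, where 39.2% and 35.7% of all genes tested were lower. EIF5A (chromosome 17, 7306999 to 7312463, plus strand) encodes the hypusine-bearing factor that helps ribosomes through difficult peptide bonds. It held 646, 682 and 656 CPM (DMSO), 594, 635 and 613 CPM (GDC), 414, 391 and 399.7 CPM (GSK), and 260.1, 266 and 261 CPM (COMBO). Each arm lay below the one before it, with the widest steps at GSK and COMBO. The log2 fold change was -0.72 ± 0.040 in GSK and -1.33 ± 0.040 in COMBO (adjusted p = 2.41e-12 and 7.17e-17), with -0.61 between COMBO and GSK (adjusted p = 2.67e-10). In GDC it was -0.11 (adjusted p = 0.0356), a call lost in 5 of 19 alternatives, some of which left out DMSO replicate B or C or GDC replicate A or C (adjusted p from 0.00184 to 0.1603).

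EIF5AL1, a nearly identical copy of EIF5A, held 77.5, 79.9 and 73.9 CPM (DMSO), 71.0, 75.6 and 73.8 CPM (GDC), 46.6, 49.6 and 53.7 CPM (GSK), and 26.6, 32.1 and 29.5 CPM (COMBO). Its counts were 11.7 ± 0.371 per 100 EIF5A counts (DMSO), 11.96 ± 0.0667 (GDC), 12.5 ± 1.11 (GSK) and 11.2 ± 0.927 (COMBO), so the pair moved together, and reads of EIF5A assigned to EIF5AL1 cannot be told apart from its own transcript. EIF5A2, the tissue-restricted paralog, held 21.9, 18.8 and 21.6 CPM (DMSO), 15.6, 17.7 and 17.2 CPM (GDC), 11.9, 12.8 and 13.1 CPM (GSK), and 11.7, 14.3 and 12.7 CPM (COMBO). GSK and COMBO overlapped for EIF5A2, and it was lower, at -0.71 ± 0.097 in GSK and -0.67 ± 0.090 in COMBO (adjusted p = 1.65e-06 and 8.15e-07). In GDC its value of -0.29 (adjusted p = 0.0136) was lost as a call without DMSO replicate C or without GDC replicate A (adjusted p from 0.00107 to 0.0923). EIF6, which keeps the large ribosomal subunit from joining too early, held 99.8, 108 and 107 CPM (DMSO), 96.3, 100.5 and 95.4 CPM (GDC), 86.4, 80.2 and 90.8 CPM (GSK), and 78.1, 80.2 and 81.8 CPM (COMBO), and was lower, at -0.39 ± 0.052 in COMBO (adjusted p = 7.03e-07), where all libraries lay below DMSO.

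The 4 Argonaute genes encode proteins that bind small RNAs and are no initiation factors. EIF2C4 (AGO4, chromosome 1, 35808016 to 35857890, plus strand) rose most of all tested members in COMBO. Its levels were 44.5, 41.6 and 44.6 CPM (DMSO), 69.4, 64.2 and 73.8 CPM (GDC), 50.2, 56.1 and 59.8 CPM (GSK), and 109, 105 and 119.5 CPM (COMBO). The arms rose from DMSO to GSK to GDC to COMBO without overlap. Against DMSO the fitted log2 change was 0.66 ± 0.069 in GDC, 0.35 ± 0.072 in GSK and 1.35 ± 0.066 in COMBO (adjusted p = 4.32e-07, 0.000194 and 1.48e-13). EIF2C1 (AGO1), which lies beside it on chromosome 1, held 119.6, 110.1 and 108 CPM (DMSO), 121, 111 and 126 CPM (GDC), 104, 109 and 114 CPM (GSK), and 104, 104 and 114 CPM (COMBO), with overlap between all arms and a COMBO value of -0.064 (adjusted p = 0.303) that library totals turned to 0.14. EIF2C2 (AGO2), the slicing Argonaute, was lower in COMBO, at -0.72 ± 0.091 (adjusted p = 4.23e-07). Without the Argonautes, 35 of 50 tested members were lower and 10 higher in COMBO, against 39.2% and 43.3% of all genes tested.

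The interaction asked whether the agents together gave more or less than their separate log2 changes added up. COMBO was above that sum for 7 members and below it for 10, against 4.86% and 16.5% of all genes. Of all interaction calls 22.7% were above the sum with TMM, 35.2% with DESeq2 size factors, 34.1% in DESeq2, 28.1% after scaling by library totals and 55.4% without the filter on low counts, where 13 members lay above the sum and 3 below it. The counts of members moved with single libraries. Members above the sum numbered 4 without DMSO replicate C, without GDC replicate A, without GDC replicate C or without GSK replicate B, and 11 without COMBO replicate A or without COMBO replicate C. Members below the sum numbered 3 without GDC replicate B, without GSK replicate A or without COMBO replicate B, and 4 without COMBO replicate A or without COMBO replicate C. For the other 37 members the departure did not pass the test, which does not show that the changes were additive.

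Over all genes tested 4.86% lay above the sum, against 45.5% of the 11 tested members of start-site selection and initiator tRNA delivery. These were 5 of the 7 members above the sum. The calls of EIF2S2 and EIF2S3 among these were lost in 3 and 7 of 18 alternatives, EIF2S2 without GDC replicate A or C or GSK replicate B, and EIF2S3 without DMSO replicate A or C, GDC replicate A or C, or GSK replicate B or C (adjusted p from 0.00322 to 0.0676 and 0.00459 to 0.106). Among the 5 EIF1 departed most, by 0.49 ± 0.052 (adjusted p = 1.31e-06). Its COMBO libraries lay above those of both single agents, although the difference from GDC did not pass the test. EIF2A followed at 0.28 and EIF5 at 0.25 (adjusted p = 0.00338 and 0.00573), and the calls of EIF1, EIF2A and EIF5 held in all 18 alternatives. EIF5A and EIF5AL1 lay below the sum, at -0.51 ± 0.056 and -0.70 ± 0.095 (adjusted p = 2.42e-06 and 2.33e-05), and EIF3I at -0.33 ± 0.061 (adjusted p = 0.000606). These 3 calls also held in all 18 alternatives. EIF4EBP1 lay below the sum, at -0.34 ± 0.091 (adjusted p = 0.0108), a call lost in 5 of 18 alternatives, some of which left out GDC replicate B, GSK replicate A, COMBO replicate A or COMBO replicate B (adjusted p from 0.0103 to 0.119).

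**Figure D4:**
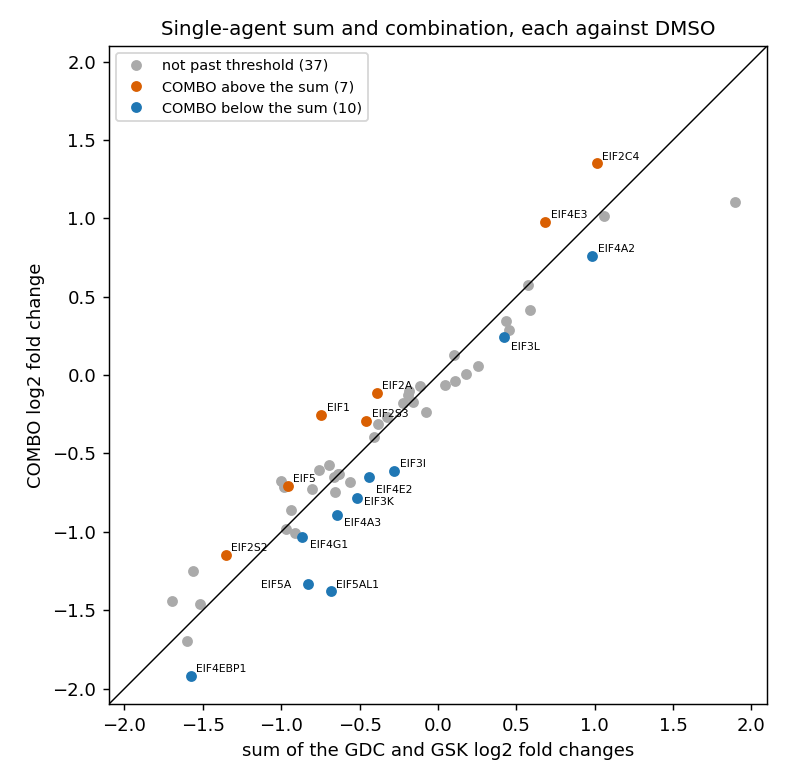
COMBO log2 fold change against DMSO for each of the 54 tested members, plotted against the sum of its GDC and GSK log2 fold changes, with the line of equality. The 7 orange points, such as EIF1, lie above the sum and the 10 blue points, such as EIF5A and EIF5AL1, below it at an adjusted p under 0.05.

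Genes of the surrounding pathway that are no members were read from 4 lists. Over all genes tested, 43.3% were higher and 39.2% lower in COMBO, with a median of 0.054. Of 23 genes of mTORC1 and its translational effectors, 12 were higher and 10 lower in COMBO (52.2% and 43.5%), with a median of 0.12. SESN1, a stress-induced inhibitor of mTORC1, went from 70.4, 58.5 and 64.2 CPM in DMSO to 398, 405 and 387 in COMBO (2.63 ± 0.057, adjusted p = 6.14e-19), and RRAGD, a Rag GTPase that places mTORC1 on the lysosome, from 12.4, 11.3 and 11.3 to 54.3, 55.4 and 51.7 (2.22 ± 0.070, adjusted p = 1.52e-16). Of 12 genes of the integrated stress response, 3 were higher and 8 lower (25% and 66.7%), with a median of -0.48. They include GCN1L1, IMPACT and PPP1CA beside genes downstream of the eIF2α kinases. PPP1R15A, which directs the phosphatase that restores eIF2α, rose by 1.95 ± 0.14, and ATF5 was at -1.35 ± 0.079 (log2, adjusted p = 5.36e-11 and 2.43e-12).

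Of 15 poly(A)-binding proteins and other mRNA-bound cofactors of initiation, 5 were higher and 10 lower in COMBO, with a median of -0.23. These are 33.3% and 66.7%, against 43.3% and 39.2% of all genes tested. SLBP, which binds the stem-loop of histone mRNAs, was at -1.84 ± 0.057, and DDX3X, an RNA helicase, at -0.95 ± 0.046 (log2, adjusted p = 1.18e-16 and 1.37e-13). Of 16 genes of elongation, termination, reinitiation and hypusine synthesis, 6 were higher and 9 lower (37.5% and 56.2%), with a median of -0.36. EEF1E1, a cofactor of the tRNA synthetase complex, was at -1.93 ± 0.16 and ABCE1, which recycles ribosomes, at -1.77 ± 0.070 (log2, adjusted p = 7.10e-10 and 4.44e-15). In the interaction, 7 of the 12 stress response genes lay above the sum and 3 below it, against 4.86% and 16.5% of all genes. ATF4 itself was among those above, but all its treated libraries lay below all DMSO libraries. Its mean was 515 ± 23.7 CPM (DMSO), 405 ± 6.43 (GDC), 292 ± 9.33 (GSK) and 463 ± 16.0 (COMBO).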

How the data were processed

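RNA-seq was done on 12 libraries of C4.2B cells, 3 for each of 4 arms. The files deposited by the authors hold raw counts of reads per gene, 1 table per library with no normalization. The submitters' processing notes name STAR, HTSeq and the build hg38, and also DESeq2, whose output was not used here. Versions, annotation and strand setting are not given in the sources used here. The 5 summary lines of each table (reads without a feature and the like) entered neither library sizes nor tests.

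Counts were analysed with edgeR 4.0.16 and limma 3.58.1 in R 4.3.3. Genes that filterByExpr kept (14189) were scaled by TMM, all 12 libraries were fitted in 1 quasi-likelihood model with a term per arm, and p-values of each of 6 comparisons were adjusted by Benjamini-Hochberg over all genes tested, with a threshold of 0.05. The common biological coefficient of variation was 0.0499, and the fit was tested on simulated data. Values per kilobase use canonical transcripts of GENCODE 44, which also gave the positions. Which transcripts the cells used was not measured, so comparisons of levels between genes per kilobase depend on these lengths. The limit that a count of 0 allows covers counting error only.

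The members, the roles and the pathway lists were chosen with earlier results of these data known. Values in every library are given for the members with the largest and the smallest COMBO change in each role, the 3 with the largest called change in each direction in GDC, GSK, COMBO and the interaction, and the genes of the eIF4F and 4E-BP axis together with EIF2S1, EIF2AK3, EIF2AK4, EIF5A, EIF5A2 and EIF6. From each pathway list the 2 genes with the largest COMBO change are given. Alternatives were scaling by DESeq2 size factors or library totals, dropping the filter or setting it at a mean of 1 CPM, the compared arms only, a replicate block, DESeq2 1.42.0 and leaving out each library.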

Additional observations from a re-analysis of the deposited data

Results flagged for a closer look

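For 17 members the change in COMBO departed from the sum of the changes in GDC and in GSK, by the interaction term of the edgeR quasi-likelihood fit with Benjamini-Hochberg adjustment. The departure, on the log2 scale, was above the sum for EIF1 (0.49, adjusted p = 1.31e-06), EIF2C4 (0.34, adjusted p = 0.017), EIF4E3 (0.29, adjusted p = 0.0348), EIF2A (0.28, adjusted p = 0.00338), EIF5 (0.25, adjusted p = 0.00573), EIF2S2 (0.21, adjusted p = 0.0239) and EIF2S3 (0.16, adjusted p = 0.0429). It was below the sum for EIF5AL1 (-0.70, adjusted p = 2.33e-05), EIF5A (-0.51, adjusted p = 2.42e-06), EIF4EBP1 (-0.34, adjusted p = 0.0108), EIF3I (-0.33, adjusted p = 0.000606), EIF3K (-0.27, adjusted p = 0.00611), EIF4A3 (-0.25, adjusted p = 0.0114), EIF4A2 (-0.22, adjusted p = 0.0154), EIF4E2 (-0.21, adjusted p = 0.0454), EIF3L (-0.18, adjusted p = 0.0211) and EIF4G1 (-0.17, adjusted p = 0.0166). Calls were lost in 17 of 18 alternatives for EIF4E2, 11 for EIF3L, 10 for EIF4G1 and EIF4A2, 8 for EIF4A3, 7 for EIF2S3, 5 for EIF3K, EIF4E3 and EIF4EBP1, 3 for EIF2S2 and 1 for EIF2C4. Those of EIF1, EIF2A, EIF5, EIF3I, EIF5A and EIF5AL1 were lost in 0 of 18. EIF5A and EIF5AL1 are nearly identical in sequence and are not separate observations.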

How the results depend on the processing

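The count of members called changed by more than 1.5 times for a few comparisons. Without a filter on low counts, 6 members were higher in GSK than in DMSO in place of 10. With library totals, 17 members were higher in COMBO than in DMSO in place of 11, and 13 were higher in COMBO than in GDC in place of 8. In the interaction, members above the sum numbered 7 in the reported fit, 13 without a filter, 11 with the filter at a mean of 1 CPM, and 4 to 11 when each library was left out. Members below the sum numbered 10 in the reported fit, 6 with DESeq2 size factors, 3 without a filter, 5 with the filter at a mean of 1 CPM, 6 in DESeq2 and 3 to 10 when each library was left out. Library totals turned the sign of 8 of 54 members in COMBO against DMSO: EIF1B, EIF2A, EIF2C1, EIF3D, EIF3E, EIF3G, EIF4ENIF1 and EIF4G3. They did so for 11 between COMBO and GDC, 7 between COMBO and GSK, 4 in GDC, 1 in GSK and 3 in the interaction. For 3 of the members with values in every library, a call was involved. Against DMSO, COMBO was then at 0.14 for EIF2C1, 0.14 for EIF3D and 0.17 for EIF4G3, and against GDC at 0.021, 0.030 and 0.13. The cause was not tested.

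Over the 168 values of the 29 named members, 3164 alternative values were computed. Of these 2884 kept direction and side of the threshold, 108 changed sign with no call in either setting, 114 lost the call, 52 gained it and 6 reversed with a call, and for 118 of the 168 values no alternative changed a call.

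With the replicate block, 11 members were higher and 37 lower in COMBO than in DMSO, as without it, 9 in place of 12 were higher in COMBO than in GSK, and the interaction had 6 above and 9 below the sum. Over all arms the replicate letters did not clearly pair the libraries. Of 18 pairs with the same letter 2 had deviations correlated above 0.1 (r from -0.0839 to 0.188), and 6 of 12 libraries were closest to their own letter. Between GDC and COMBO, r was 0.116 (A), 0.188 (B) and 0.0727 (C) for the same letter, and -0.146 to 0.0453 for different letters. Whether the letters pair these arms was not tested.

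Only mRNA of 1 cell line at 1 time was measured, and EIF4A1 and EIF3C could not be quantified. EIF4EBP3, with at most 37 counts in a library, was limited most by depth among tested members.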
